A study of Mus musculus with 3 samples.

Results

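The genes described here are 37 mouse genes of fibroblast matrix and mesenchymal identity, chosen by name with earlier results of these data known. They are interstitial collagens, matrix glycoproteins and proteoglycans, crosslinking enzymes, proteases and their inhibitors, and surface, nuclear and intracellular markers of fibroblasts. All 37 were on the array, by 66 of its 41174 non-control probes, and 36 were well above background on at least 1 array. Probes of the array carried 27670 gene names in all. The samples were mouse embryonic stem (ES) cells, and each was read on 1 Agilent array in 1 colour, Cy3, which gives 3 arrays. KO 4 and KO 22 are the 2 samples labelled Tet1 KO, and the third sample is labelled Tet1 WT and has no replicate. Tet1 is an enzyme that oxidises methylcytosine in DNA. All 3 samples share the cell line, V6.5, its mix of 129 and C57BL6 background, medium containing LIF, the cytokine that keeps ES cells undifferentiated, and culture on irradiated feeder cells. RNA was taken after preplating. The labels give no genotype, source or remaining share of the feeders, and do not say whether KO 4 and KO 22 are separate lines, clones or cultures, although the series' design text refers to mice. All p-values below thus reflect the spread among these arrays alone, and that spread may be technical.

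Fibroblasts build the interstitial matrix of connective tissue. They secrete fibrillar collagens, which are trimmed, assembled on fibronectin and collagen V, decorated by small leucine-rich proteoglycans and crosslinked by lysyl oxidases, while metalloproteinases and their inhibitors set how fast the matrix turns over. Mouse ES cells are often grown on a layer of growth-arrested embryonic fibroblasts, and preplating lets such feeders settle on a dish while ES cells are collected from the medium. Some genes of the group, among them those for vimentin, galectin-1 and fibronectin, are also known from cells that are not fibroblasts.

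The labelled knockout and the cell identity were checked first. The level of Tet1 relative to the 75th percentile was -1.75 on KO 4, -1.72 on KO 22 and 0.21 on wild type on the log2 scale; the mean difference of -1.94 ± 0.09 (SE) missed the threshold in limma (adjusted p = 0.0529). Of 14 ES cell markers 13 were on the array, and all 13 were well above background in all 3 samples, with a median of -0.02 for KO 4 minus KO 22 on the log2 scale. Pou5f1, the gene of the pluripotency factor Oct4, had processed intensities of 21200, 18958 and 25371 on KO 4, KO 22 and wild type. Values of the 3 arrays were made comparable by subtracting each array's 75th percentile after log2, so differences are not plain ratios of the intensities printed. On the arrays 62.2% to 62.8% of 43379 non-control spots were well above background and 0 were saturated, and all arrays lay on 1 slide with 1 scan time. With so few arrays, their number limits the precision.

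The main pattern was a higher level in KO 4. Of the 36 genes tested, 34 were higher in KO 4 than in KO 22, where 47.0% of all 17709 genes tested were. KO 4 was the highest of the 3 arrays for 30 of them, against 23.8% of all genes. The median difference was 0.63 for KO 4 minus KO 22, 0.65 for KO 4 minus wild type and -0.08 for KO 22 minus wild type, where the medians over all genes were -0.01, -0.04 and -0.02. KO 4 was above wild type for 32 of the 36 (44.7% of all genes) and KO 22 for 15 (47.8%), and for 17 KO 4 was above both other arrays while KO 22 was below wild type (6.64%). Col12a1 entered these counts through its signal on KO 4 alone. With signal required on all 3 arrays, KO 4 was above KO 22 for 33 of 35 genes and the highest array for 29. The differences from wild type share the wild type array and are not independent. With 1 array on each side these are values with no replicate check and no test. The genes were chosen with earlier results of these data known, so the counts describe the set and are not independent support. In such bulk samples, more cells of a type and more RNA per cell cannot be told apart.

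**Figure D1:**
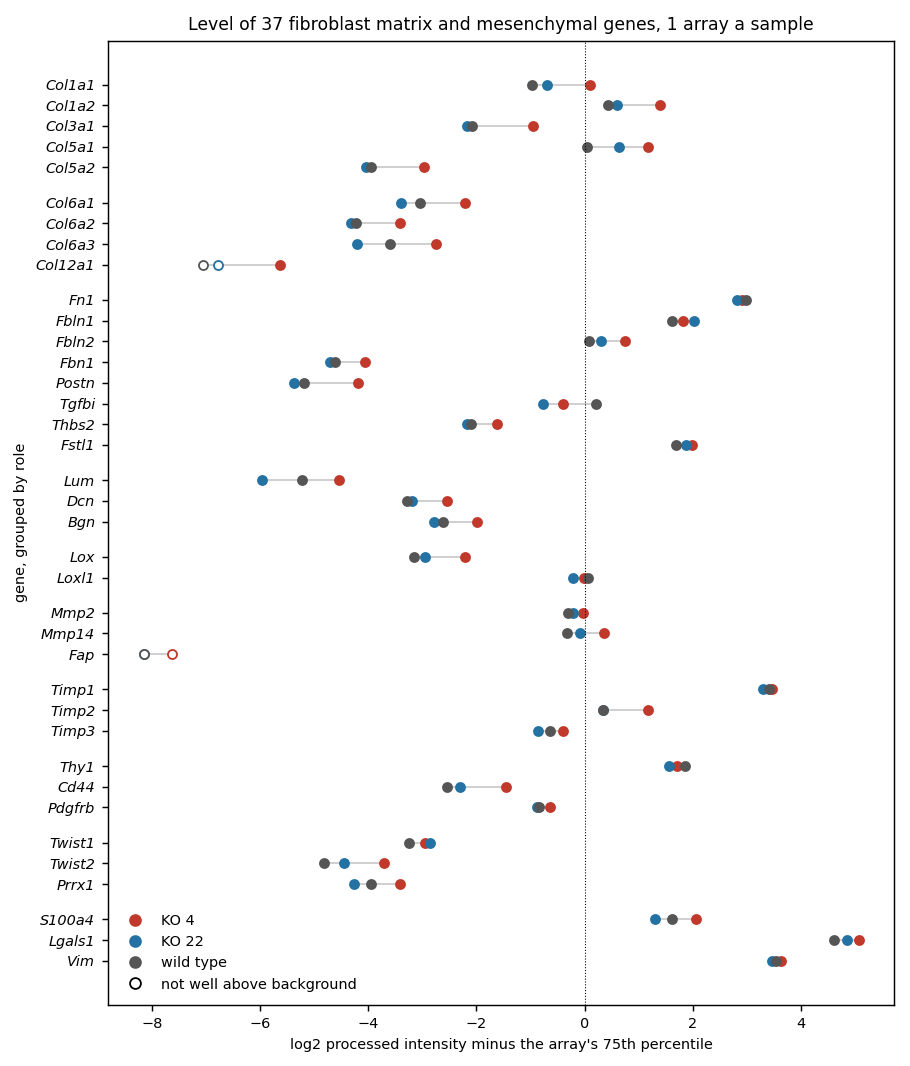
Level of the 37 genes on each array, as log2 processed intensity minus the array's 75th percentile; each point is 1 array, open points are not well above background, and the dotted line is the 75th percentile. KO 4 is the rightmost of the 3 arrays for 30 of the 36 genes tested; levels of different genes come from different probes and are not to be compared.

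The promoters of the collagen genes Col1a2 and Col3a1 are shown because both encode interstitial collagens that were higher in KO 4. RefSeq promoter windows (build GRCm38.p6, 250 bases before to 50 after the start) were matched for 24 of the 37 genes. Col1a2 lies on the + strand at chr6:4505368-4505667 and Col3a1 on the + strand at chr1:45311288-45311587. Capitals mark CCAAT, which reads ATTGG where it lies on the opposite strand, a promoter element bound by the factor NF-Y, and TATAAA, the element bound by the TATA-binding protein.
Col1a2: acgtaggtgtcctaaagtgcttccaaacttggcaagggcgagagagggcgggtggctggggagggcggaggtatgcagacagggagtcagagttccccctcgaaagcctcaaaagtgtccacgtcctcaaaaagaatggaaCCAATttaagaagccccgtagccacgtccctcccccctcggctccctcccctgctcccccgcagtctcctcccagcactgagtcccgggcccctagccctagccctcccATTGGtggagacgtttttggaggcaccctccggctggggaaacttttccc
Col3a1: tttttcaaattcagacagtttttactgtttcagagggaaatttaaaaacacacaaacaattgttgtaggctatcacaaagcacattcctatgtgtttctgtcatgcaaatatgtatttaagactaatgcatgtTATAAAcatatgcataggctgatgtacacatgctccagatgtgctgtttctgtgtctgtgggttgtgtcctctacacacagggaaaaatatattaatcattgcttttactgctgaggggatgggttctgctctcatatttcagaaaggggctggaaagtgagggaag
The windows differ in make-up: that of Col1a2 holds 2 matches to CCAAT and 2 to GGGCGG, and that of Col3a1 holds 1 match to TATAAA and 3 to CATNTG, a form of the E-box that basic helix-loop-helix factors such as Twist bind. None of these matches overlap. Searched on both strands, CCAAT was in 9 of the 24 windows (37.5%) and in 38% of 27025 promoters of the same length. GGGCGG was in 15 of 24 (62.5%) against 35.9%, TATAAA in 5 (20.8%) against 14.2%, CATNTG in 4 (16.7%) against 39.4%, and TGANTCA, the AP-1 element, in 1 (4.17%) against 7.92%. The CCAAT matches of Col1a2 begin 109 and 0 bases before the start, and the TATAAA match of Col3a1 begins 117 bases before it. A match is a description of letters, and neither the use of these sites nor these shares were tested.

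Fibrillar collagens form the rope-like fibres of skin, tendon and bone. All 5 genes measured were higher in KO 4 than on both other arrays, with medians of 0.80 for KO 4 minus KO 22 and 1.06 for KO 4 minus wild type, and 0.17 for KO 22 minus wild type. Col1a1, the alpha 1 chain of collagen I, had an intensity of 767 on KO 4, 399 on KO 22 and 319 on wild type. Its partner chain gene Col1a2 had 1895, 979 and 841 in the same order. For these chains KO 22 lay 0.27 and 0.17 above wild type, and KO 4 lay further up, 0.79 and 0.80 above KO 22. Col3a1, the collagen of elastic organs and early wound matrix, had 369 on KO 4, 143 on KO 22 and 147 on wild type. That is 1.21 above KO 22, or 2.32-fold, while KO 22 differed from wild type by -0.08.

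Collagen V starts the assembly of collagen I fibres. Col5a1 had an intensity of 1615 on KO 4, 1007 on KO 22 and 646 on wild type, so that both knockout arrays lay above wild type, by 1.12 and 0.59. Col5a2, the other chain, had 91.8, 39.0 and 40.2, with KO 4 1.08 above KO 22 and KO 22 level with wild type (-0.09). A second probe of Col5a1 had 30.5, 23.1 and 23.5, with 0.24 between the knockout arrays against 0.53 for the brighter probe. It put KO 22 level with wild type (-0.07), so the 2 probes of Col5a1 disagreed on KO 22.

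Collagen VI makes beaded microfilaments around cells, and all 3 of its chain genes measured were highest in KO 4. Col6a1 had an intensity of 154 on KO 4, 61.3 on KO 22 and 75.9 on wild type. Col6a2 had 67.7, 32.4 and 33.2. Col6a3 had 106, 35.1 and 51.7, the largest difference between the knockout arrays among the 36 genes, at 1.45 or 2.72-fold. For Col6a1 and Col6a3 KO 22 was the lowest array, 0.36 and 0.61 below wild type in size. Col12a1, a collagen attached to the surface of fibrils, was well above background on KO 4 alone, at 14.4, with 5.89 on KO 22 and 4.68 on wild type. It was at least 1.31-fold higher in KO 4 than in KO 22 and at least 1.28-fold higher than in wild type, bounds that set KO 4 against the lowest signal well above background on each dim array.

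On build mm7, that of the array's design, the probes of Col1a1 lie on chromosome 11 from 95060800 to 95060859, of Col1a2 on chromosome 6 from 4493505 to 4493564 and of Col3a1 on chromosome 1 from 45585395 to 45585454. Those of Col6a1 and Col6a2 lie near each other on chromosome 10, from 76364050 to 76364109 and from 76251837 to 76251896. The probe of Col6a3 lies on chromosome 1 from 90671098 to 90671157, and that of Lum on chromosome 10 from 97135063 to 97135122. Exons and untranslated regions at these places were not analysed here.

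Among 8 matrix glycoprotein genes the spread was wider, from -0.20 to 1.19 for KO 4 minus KO 22. Postn, which encodes periostin, a protein that helps collagen crosslinking, had an intensity of 39.2 on KO 4, 15.5 on KO 22 and 17.0 on wild type, or 1.19 above KO 22. Fbn1, for the microfibril protein fibrillin-1, had 42.8, 24.8 and 25.4. Thbs2, for the matricellular protein thrombospondin-2, had 233, 144 and 146. By the brightest probe of each of these 3 genes, KO 22 lay within 0.18 of wild type in size and KO 4 alone was higher. A dim second probe of Fbn1, well above background on 1 array, had 9.73, 11.2 and 6.05, with KO 22 highest. Fbln2, for fibulin-2, had 1198, 794 and 660, a graded order with KO 4 highest.

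Fibronectin, the scaffold on which collagen is laid down, did not follow the collagens. Fn1 had an intensity of 5381 on KO 4, 4564 on KO 22 and 4899 on wild type, and its differences were 0.08 for KO 4 minus KO 22 and -0.07 for KO 4 minus wild type. Fstl1, a secreted follistatin-like protein gene, had 2844, 2372 and 2016, only 0.11 apart between the knockout arrays. Fbln1, for the elastic fibre protein fibulin-1, had 2535, 2610 and 1904 and was 1 of 2 genes lower in KO 4 than in KO 22, by -0.20. Both knockout arrays lay above wild type for Fbln1, by 0.21 and 0.41, and its second probe gave 0.24 and 0.42.

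Tgfbi, a secreted adhesion protein gene induced by TGF-beta, ran the other way from wild type. The array intensities were 545, 376 and 719 for KO 4, KO 22 and wild type. Both knockout arrays lay below wild type, by -0.60 and -0.98, while KO 4 was still 0.38 above KO 22. The mean difference was -0.79 ± 0.21 (SE, n = 2 against 1), which did not pass in limma (adjusted p = 0.15). With an intensity trend in the variance model, Tgfbi passed at the same difference (adjusted p = 0.0236), and so did Col5a1 at 0.85 (adjusted p = 0.0347). That fit called 19.0% of all genes, 3372 of 17709. With the mean over its probes and no trend, Col5a1 stood at 0.45 and did not pass in limma (adjusted p = 0.277).

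**Figure D2:**
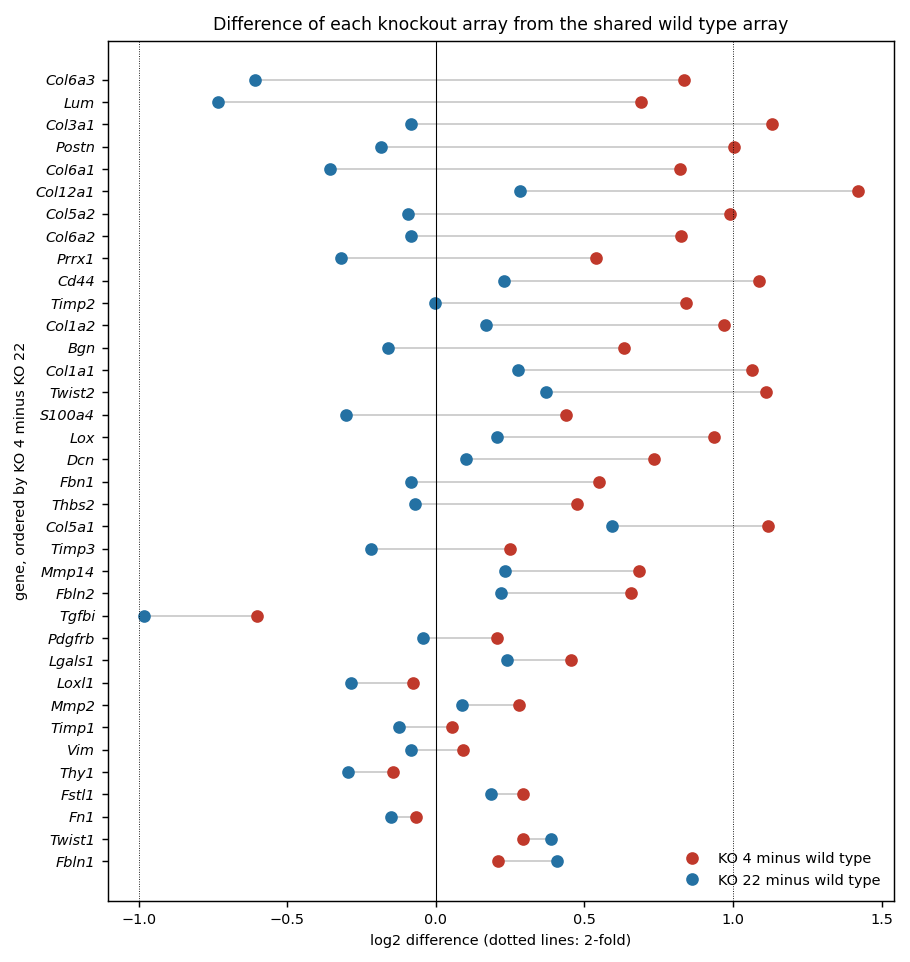
Log2 difference of KO 4 (red) and KO 22 (blue) from the shared wild type array for the 36 genes tested, ordered by KO 4 minus KO 22; dotted lines mark 2-fold and each point is 1 array against 1. The red point lies to the right of the blue one for all genes but Twist1 and Fbln1, and Tgfbi has both points well left of 0.

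The small leucine-rich proteoglycans bind fibrils and space them. Lum, for lumican, had an intensity of 31.0 on KO 4, 10.4 on KO 22 and 16.7 on wild type, which is 2.68-fold between the knockout arrays, with KO 22 the lowest. Dcn, for decorin, had 122, 70.9 and 63.9. Bgn, for biglycan, had 181, 93.7 and 101. All 3 were highest in KO 4, at 0.63 to 1.42 above KO 22. The Lum signal on KO 22 is near the lowest spots well above background there (9.86), so the size of that difference is uncertain.

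Lysyl oxidases crosslink collagen and elastin. Lox had an intensity of 154 on KO 4, 83.7 on KO 22 and 70.2 on wild type, with KO 4 0.73 above KO 22. Loxl1, which acts mostly on elastin, had 712, 553 and 652, with KO 4 and wild type within 0.08 of each other in size. The 2 enzymes thus differed in whether KO 4 stood apart.

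Of the proteases, Mmp14, a membrane-bound collagenase that activates pro-MMP2, had an intensity of 923 on KO 4, 606 on KO 22 and 499 on wild type. Mmp2, a gelatinase, had 702, 553 and 503. Both were graded from KO 4 to wild type, Mmp2 over a narrow range, 0.19 between the knockout arrays. Fap, a surface protease of activated fibroblasts, was not well above background on any array with either of its 2 probes and was not tested. Among the tissue inhibitors of metalloproteinases, Timp2, which also takes part in MMP2 activation, had 1624, 812 and 787, with KO 4 0.85 above KO 22. Timp1 had 7945, 6302 and 6641, and its 3 probes gave 0.10 to 0.18 between the knockout arrays. Timp3, which is held in the matrix, had 546, 355 and 399, between these 2 in size.

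The surface markers were unlike each other too. Cd44, the hyaluronan receptor, had an intensity of 263 on KO 4, 130 on KO 22 and 107 on wild type, with 0.86 between the knockout arrays. Pdgfrb, the receptor through which platelet-derived growth factor drives mesenchymal growth, had 462, 349 and 348. Thy1, a surface glycoprotein used to sort fibroblasts, had 2357, 1904 and 2261, and was highest on the wild type array. Cd44 thus followed the collagens, while Pdgfrb and Thy1 differed by 0.25 and 0.15 between the knockout arrays.

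The mesenchymal transcription factors split in the same manner. Twist2 had an intensity of 55.2 on KO 4, 29.7 on KO 22 and 22.2 on wild type, and was 1.11 above wild type in KO 4. Prrx1, a homeobox gene of limb and connective tissue, had 67.8, 33.6 and 40.5, and its 2 other probes with signal were also higher in KO 4 than in KO 22, by 0.53 and 0.86. Those 2 probes put KO 22 above wild type (0.35 and 0.10), while the brightest probe put it below (-0.32). Twist1 had 93.1, 89.4 and 66.0, with KO 4 and KO 22 within 0.10 of each other in size and both above wild type (0.29 and 0.39). Of the intracellular markers, S100a4, a calcium-binding protein gene known as fibroblast-specific protein, had 2973, 1598 and 1906. Lgals1, for galectin-1, had 24013, 18551 and 15213, and Vim, for the filament protein vimentin, had 8928, 7098 and 7281. S100a4 lay 0.74 above KO 22 in KO 4, against 0.22 for Lgals1 and 0.18 for Vim.

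The genes did not differ by 1 common factor. KO 4 was at least 2-fold above KO 22 for 7 of 36 (Col6a3, Lum, Col3a1, Postn, Col6a1, Col12a1 and Col5a2), or 6 without Col12a1, whose difference has only a bound, and this held for 0.774% of all genes; 0 were 2-fold lower (0.644%). The same fold over wild type was reached in KO 4 by 6 (Col3a1, Col5a1, Twist2, Cd44, Col1a1 and Postn, the last at 1.00), or 7 with Col12a1, whose difference has only a bound, against 2.74% of all genes, and in KO 22 by 0 of 36, against 2.39%. At least 2-fold below wild type were 0 of 36 in KO 4 (2.15% of all genes) and 0 of 36 in KO 22 (2.19%). The deposited series matrix put 3 of them 2-fold or more above KO 22 in KO 4, and with normexp background correction, which adds an offset that shrinks differences of dim probes, 0 were. Of 35 genes well above background on all 3 arrays, 24 were in the top 5% of 16401 such genes by KO 4 minus KO 22, and Col6a3 and Lum took ranks 8 and 10.

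The size of the difference went with the signal of the probe. In 16 genes with a signal over the 75th percentile on at least 1 array the median of KO 4 minus KO 22 was 0.30, from -0.20 for Fbln1 to 0.85 for Timp2. Fn1, Thy1 and Vim were among the lowest of these 16, and Col1a1, Col1a2 and S100a4 were among the highest. Col1a1 and Mmp14 were in this group through KO 4 alone, and Tgfbi and Loxl1 through wild type alone. The choice of group thus depends in part on the differences described. In the 20 others the median was 0.83. Across the 36 genes the difference and the wild type signal had a Spearman correlation of -0.69 and a Pearson correlation of -0.70. This describes genes that share the same 3 arrays and are not independent.

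**Figure D3:**
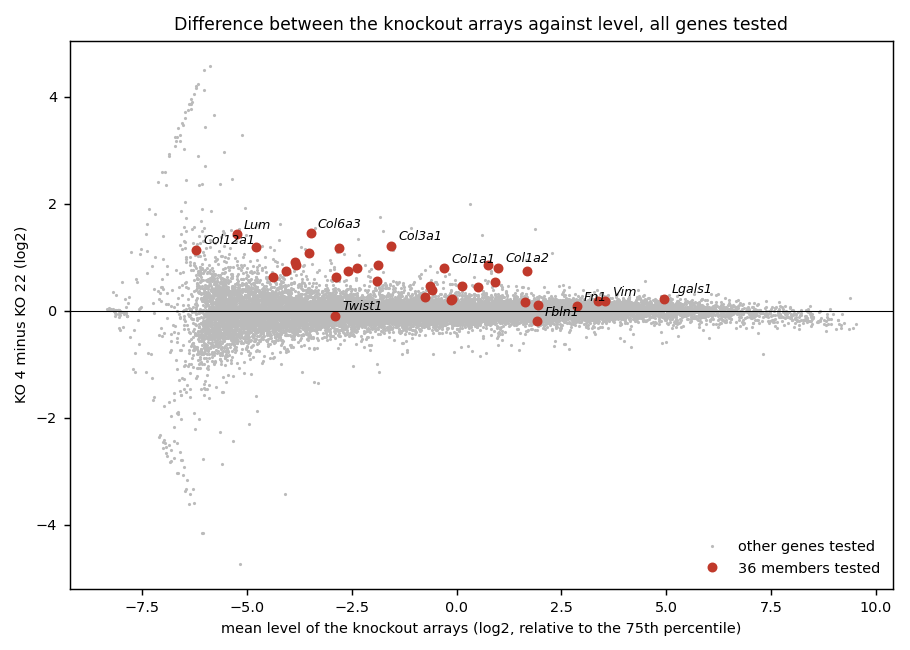
KO 4 minus KO 22 (log2) against the mean level of the knockout arrays (log2, relative to the 75th percentile) for all 17709 genes tested (grey) and the 36 fibroblast matrix and mesenchymal genes (red). The red points lie above 0 except Twist1 and Fbln1, and among those of high level Fn1 lies at 0.08 and Vim at 0.18, while Col1a2 and S100a4 lie at 0.80 and 0.74.

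Repeated spots show the error within an array, which is technical. One probe each of Col1a1, Cd44 and Fn1 was spotted 10 times, with 1 spot of Fn1 on the wild type array left out as an outlier. For Col1a1 the 10 spots ran from 729 to 838 on KO 4, from 365 to 449 on KO 22 and from 295 to 342 on wild type, with an SD of 0.06, 0.07 and 0.07 on the log2 scale. The spots of KO 4 thus lay clear of both other arrays. Those of KO 22 also lay above those of wild type, by a narrower gap. The repeated Cd44 probe, which is not its brightest, had a median of 110, 52.7 and 40.0, and SDs of 0.07, 0.12 and 0.13, against a difference of 0.90 between the knockout arrays. For Fn1 the SDs were 0.04, 0.06 and 0.04 beside a difference of 0.08, and the scaled spots of KO 4 overlapped with those of both other arrays. Spread between spots says nothing about spread between cultures.

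**Figure D4:**
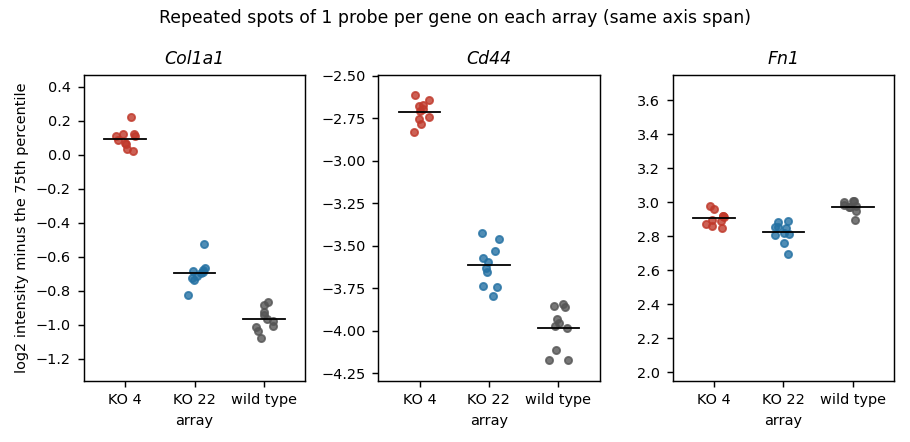
Scaled log2 intensity of each repeated spot of 1 probe of Col1a1, Cd44 and Fn1 on the 3 arrays; bars are means and all panels span the same range. The spots of KO 4 stand apart from both other arrays for Col1a1 and Cd44 and overlap with them for Fn1. For Col1a1 and Cd44 the spots of KO 22 also lie above those of wild type, by a narrower gap.

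Other probes of the same genes mostly pointed the same way between the knockout arrays. Of the 66 probes 50 had signal on at least 1 array, and 14 of these were further probes of 11 genes. The sign of KO 4 minus KO 22 was the same as for the brighter probe in 13 of 14. The exception was a dim second probe of Fbn1, with 9.73 on KO 4 and 11.2 on KO 22. A second probe of Col6a2 had a larger difference than the first, 1.35 against 0.91. It put KO 22 above wild type (0.20), where the first put it below (-0.08). The sign of KO 22 minus wild type also differed between probes of Col5a1, Fbn1 and Prrx1. By their brightest probes, Col6a2, Fbn1 and Prrx1 are among the 17 genes with KO 4 above and KO 22 below wild type. Spots within 2 rows and columns of those of the 37 genes had median differences from -0.14 to 0.14 between the knockout arrays, with a middle value of -0.01.

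The comparison of knockout with wild type asks whether Tet1 loss went with a change of these genes. Limma called 0 of the 36, where it called 63 of 17709 genes (0.356%, or 0.0339% higher and 0.322% lower). Before adjustment, p was below 0.05 for 2 of 36, Twist1 higher and Tgfbi lower, against 28.2% of all genes (13.2% higher and 15% lower). The spread in this test comes from the pair of knockout arrays, and thus from the differences given above. Col1a1 had a mean difference of 0.67 ± 0.40 (SE, adjusted p = 0.36), Col1a2 of 0.57 ± 0.41 (adjusted p = 0.426) and Col3a1 of 0.52 ± 0.61 (adjusted p = 0.611). For Col5a1 it was 0.85 ± 0.28 (adjusted p = 0.182) and for Col5a2 0.45 ± 0.54 (adjusted p = 0.627). Col6a1, Col6a2 and Col6a3 stood at 0.23, 0.37 and 0.11, with adjusted p from 0.635 to 0.934. Col12a1 entered the test through its signal on KO 4 alone, did not pass, and its mean difference is not a measured size: it was -0.020 with normexp. Of the other genes that were 2-fold apart in some pair of arrays, Cd44 stood at 0.66 ± 0.44 (adjusted p = 0.397), Twist2 at 0.74 ± 0.38 (0.303), Postn at 0.41 ± 0.60 (0.687) and Lum at -0.02 ± 0.71 (0.989). Both knockout arrays lay above wild type for 15 genes (38.0% of all genes), both below for 4 (45.5%) and on either side of it for 17. The 4 were Tgfbi, Fn1, Loxl1 and Thy1.

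Gene lists of the same pathway show how far the pattern reached. Of 19 collagen processing genes tested, which encode prolyl and lysyl hydroxylases, chaperones and propeptide proteases, 11 were higher in KO 4 than in KO 22, with a median of 0.04. No gene of the list passed in limma (0 of 19), and p before adjustment was below 0.05 for 1 higher and 4 lower. Of all genes, 13.2% were higher and 15% lower at that threshold. Adamts2, which trims procollagen, had 0.71, Bmp1, the C-propeptide protease, 0.49, P3h3 0.42 and P3h1 -0.28. Serpinh1, the collagen chaperone HSP47, was not among the 4 largest, at 0.16. Bmp1 was higher than wild type in both knockout arrays, at 924 and 592 against 248. Most collagen processing genes thus lay close to 0 between the knockout arrays.

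Of 7 other interstitial collagen genes tested, 6 were higher in KO 4 than in KO 22, with a median of 0.23. The largest were Col8a1 at 0.49, Col5a3 at 0.48, Col16a1 at 0.41 and Col11a1 at 0.23. Of 27 further fibroblast genes 22 were higher in KO 4 than in KO 22, with a median of 0.30. Ccl2, a chemokine of activated fibroblasts, led at 1.42, with 1775 on KO 4, 597 on KO 22 and 676 on wild type. Cav1 and Tnc were next among those reported, at 0.73 and 0.64. Of these 27, 13 were above wild type on both knockout arrays and 4 below. In limma 0 passed, and p before adjustment was below 0.05 for 7 higher and 2 lower, against 13.2% and 15% of all genes.

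Among 11 other matrix proteases and inhibitors, 8 were higher in KO 4 than in KO 22, with a median of 0.10. Mmp3, stromelysin-1, was the largest at 1.48, with 353 on KO 4, 114 on KO 22 and 193 on wild type. Mmp13, Adamts1 and Adamts5 followed at 0.73, 0.47 and 0.25. Of 9 matrix receptor genes 8 were higher in KO 4 than in KO 22, with a median of 0.11. The highest was Itga1, a collagen-binding integrin subunit, at 0.58, with signal on some but not all of the 3 arrays. Among those with signal on all 3, Itga11, another such subunit, had 0.53, Ddr1 0.22, Itgb5 0.12 and Itga5 0.11. TGF-beta is a main inducer of matrix genes, and the 16 genes tested of its pathway had a median of 0.02 between the knockout arrays but 0.41 and 0.25 above wild type. Ltbp2, Tgfb3, Tgfbr2 and Tgfb2 had the largest values between the knockout arrays, from 0.62 for Ltbp2 to 0.22 for Tgfb2. In matrix receptors, other proteases and the TGF-beta pathway, with 9, 11 and 16 genes tested, 0 genes passed in limma. Before adjustment, p was below 0.05 for 3, 4 and 7 higher and for 0, 0 and 2 lower. The shares over all genes were 13.2% higher and 15% lower.

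**Figure D5:**
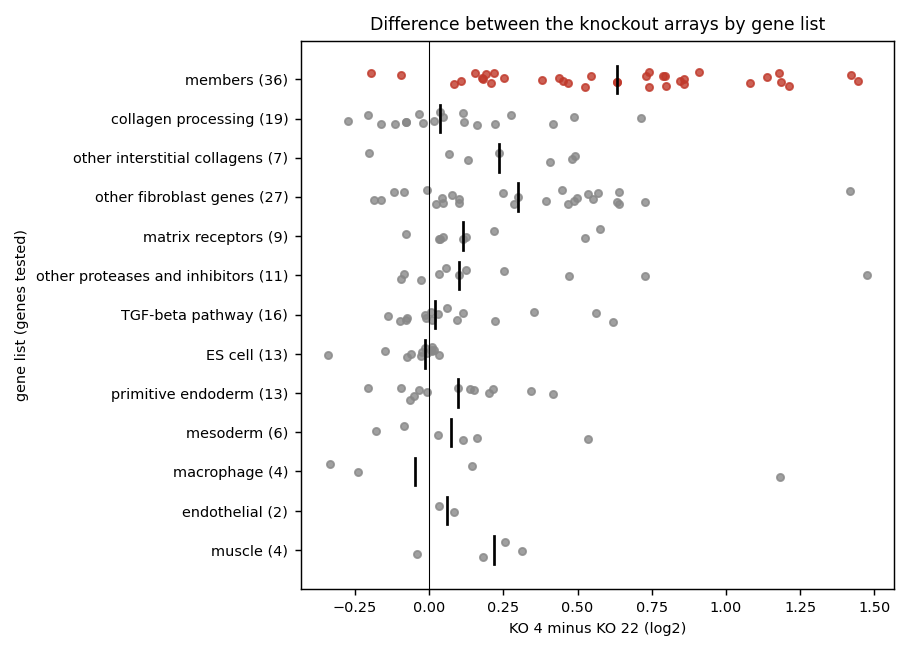
KO 4 minus KO 22 (log2) of each gene tested, by gene list, with the number of genes in parentheses; points are genes and black bars are medians. The median of the fibroblast matrix and mesenchymal genes is 0.63, that of other fibroblast genes 0.30 and that of ES cell markers -0.02.

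Markers of other cells that the samples could hold are given beside this pattern. The 13 ES cell markers ran from -0.34 (Dppa5a) to 0.03 for KO 4 minus KO 22, with Nanog at -0.15, Epcam at -0.07 and Sox2 at -0.06. Primitive endoderm genes, which include matrix genes of their own, had a median of 0.10 between the knockout arrays over 13 genes and of -0.82 and -0.64 against wild type. Between the knockout arrays 7 of the 13 were higher in KO 4. The largest differences were Thbd at 0.42, the collagen IV genes Col4a1 and Col4a2 at 0.34 and 0.21, and Gata4 at -0.20. The laminin gene Lama1 had -0.09. Limma called 1 of the 13, Cubn, lower in the knockout arrays, where it called 0.322% of all genes lower. Before adjustment, p in limma was below 0.05 for 1 of the 13 higher and 8 lower, against 13.2% and 15% of all genes. Against wild type, the endoderm median in KO 4 thus differed in sign from that of the fibroblast genes, 0.65. Of 7 macrophage genes 4 were tested, with a median of -0.05, and Ptprc, Adgre1 and Tyrobp were not well above background on any array; Lyz2 alone was at least 2-fold higher in KO 4 than in KO 22 (83.0 against 32.8). Of 6 endothelial genes 2 were tested, and Cdh5, Kdr, Tie1 and Emcn were not well above background. Of 6 muscle genes 4 were tested, with a median of 0.22 and without Myod1 and Myog, which were not well above background. The 6 mesoderm genes had a median of 0.07 between the knockout arrays. Against wild type their medians were 0.48 in KO 4 and 0.44 in KO 22, with 4 genes above it on both knockout arrays and 2 below. Among the defining fibroblast markers Thy1, Pdgfrb and Col1a1 had signal on all 3 arrays, Pdgfra was near background at 15.8 on KO 4 and 20.9 on wild type, with KO 22 the lowest, and Fap had no signal well above it. The summed level of the 36 genes, in units of each array's 75th percentile, was 97.6 on KO 4, 81.9 on KO 22 and 79.4 on wild type, against 143, 121 and 94.6 for the other fibroblast genes and 772, 898 and 834 for the ES cell markers. The gene Dppa5a carried most of the last sum, and without it the other 12 ES cell markers summed to 304, 305 and 295. Of the sum of the 36 genes, Lgals1, Vim and S100a4 made up 50.04 on KO 4, 42.25 on KO 22 and 39.12 on wild type. The 5 fibrillar collagen genes made up 6.60, 3.98 and 3.20. That sum thus rests largely on bright genes, some of them also known from cells that are not fibroblasts. The sum of the other fibroblast genes also rests largely on bright genes, among them Ccn2, Tagln and S100a6. Tagln had 19585 on KO 4, 12006 on KO 22 and 5090 on wild type. Over the 27 genes of that list the median of KO 22 minus wild type was 0.06, with 15 above and 12 below wild type. Summed macrophage genes stood at 2.54, 2.92 and 3.05, a sum carried mostly by Cd68, at 1546.5, 1641.7 and 1704.4. The other 3 tested differed: Csf1r, not well above background on every array, lay 1.94 above wild type in KO 4 and 1.80 in KO 22. Lyz2 stood at 0.63 and -0.55 against wild type, and Fcer1g at -0.02 and 0.31, in the same order. The part of feeder cells in these values was not tested.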

How the data were processed

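RNA of 3 ES cell samples was read on 3 arrays. Each deposited scanner file gives spot intensity from Agilent Feature Extraction 10.1.1.1, which subtracted background, detrended within the array and replaced dim values by surrogates, per the file headers. The deposited series matrix holds log2 values whose 3 columns share a median of 5.52; how they were normalized is stated in no source used here, and limma is named in the submitters' processing notes.

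Processed intensities were put on log2, minus each array's 75th percentile (718, 645 and 624 on KO 4, KO 22 and wild type). Outlier spots were left out and repeated spots averaged. Probes were named by accession, symbol or synonym through RefSeq (GRCm38.p6), which matched 32719 of 41174 (79.5%). Genes well above background on at least 1 array were tested, by the probe with the highest mean: 17709 genes. Limma 3.58.1 in R 4.3.3 (lmFit, eBayes, Benjamini-Hochberg, threshold 0.05) compared knockout with wild type on 1 residual degree of freedom, 3.03 after moderation; the single wild type array is taken to vary as the knockout pair does. Its steps were tested on simulated arrays. All 37 genes were named; of each other list up to 4 genes well above background on all 3 arrays, by size of KO 4 minus KO 22, and of all genes the 10 largest in each direction. Other genes named were chosen after their values were seen, as markers. The 37 genes and the lists were chosen with earlier results of these data known. A gene of the other fibroblast list is not reported here.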

Additional observations from a re-analysis of the deposited data

How the results depend on the processing

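The count of 34 of 36 genes higher in KO 4 than in KO 22 was also found with normexp, quantile normalization, series matrix values and probe means, and the counts were 33 of 35 with signal required on all 3 arrays and 35 of 37 without a filter. Sizes depended more on the values. With normexp, leaving out spots dimmer than their background, the median was 0.33 for KO 4 minus KO 22 and 0.31 for KO 4 minus wild type, and 0 genes reached 2-fold in KO 4 over KO 22; its offset of 50 shrinks dim differences by construction. The series matrix gave 3 such genes, and the cause was not tested. The median was 0.30 over the 16 genes of brighter signal, a choice made after seeing the data, as was the look at every other probe with signal. The median of KO 22 minus wild type ran from -0.08 to 0.02 over the alternatives. Limma called 5 of the 36 genes with normexp (Col1a1, Col1a2, Col5a1, Mmp14 and Tgfbi) and 2 with an intensity trend, beside 3293 and 3372 of all genes, and 0 with the others; over all genes the fit as reported called 63, the series matrix 1013, signal on all 3 arrays 911, quantile normalization 53 and no filter 0. The mean difference changed sign for Col12a1 with normexp (-0.020), Timp1 with quantile normalization (0.023) and Timp3 in the series matrix (-0.000425). Leaving out KO 4 or KO 22 leaves 1 array against 1, and these values are the differences from wild type given for each gene. Signal over background limits Col12a1, Lum and Fap most. No paired analysis was possible because the knockout and wild type samples share no replicate number.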

Other observations

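Among all genes with signal on all 3 arrays, the 10 named genes with the largest differences on the side higher in KO 4 were Galnt6, Peg3, Ccm2l, Il1rl1, Inhba, Mmp3, Col6a3, Tbxas1, Lum and Ccl2, with values from 1.42 to 1.99. Inhba, a subunit of activin A, had an intensity of 580 on KO 4, 180 on KO 22 and 219 on wild type. Galnt6, a glycosyltransferase gene that starts O-linked chains, had 1773, 402 and 1365, so that KO 22 and not KO 4 stood apart. Peg3, an imprinted zinc-finger gene, had 370, 98.5 and 187.

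On the lower side the 10 were Prr22, Tmem241, Gsk3a, Tmem178, Kcnd1, Olfr149, Cfap299, Cdk5r2, Elapor2 and Ccdc142, with values from -3.44 to -0.98, and none was a fibroblast matrix or mesenchymal gene. Prr22 had 12.8 on KO 4, 124 on KO 22 and 13.0 on wild type. Each of these is 1 array against 1, with no test.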
